A study of Mus musculus with 6 samples.

Results

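Cytosolic ribosomal protein genes encode the protein part of the ribosomes that translate messenger RNAs of the nucleus. They were taken by symbol, as Rpl or Rps followed by a number and at most 1 further letter and not ending in l, together with Rplp0, Rplp1, Rplp2 and Rpsa. The rule gave 76 genes of the 33924 symbols in the count tables, 45 of the large subunit and 31 of the small subunit. All 76 passed the filter on low counts. It leaves out the ribosomal proteins encoded by Fau and Gnb2l1 (now Rack1), which are described beside the 76, and Rpl41 was not analysed here.

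RNA was sequenced in 3 libraries labelled Rif1-KO and 3 libraries labelled control (WT), all from E14, a mouse embryonic stem cell line. Rif1 encodes a chromatin protein known for setting the timing of DNA replication. For both groups the labels give 2i medium, which keeps the cells in naive pluripotency through kinase inhibitors, on plates with 0.1% gelatin at 37 °C and 5% CO2. They also give 0.1 µM 4-hydroxytamoxifen (4-OHT) for 2 days, then 1 day without it. The names in the file headers hold TAM for the libraries labelled Rif1-KO and 2i for the control libraries, so genotype and a possible difference in drug or medium cannot be told apart. The way Rif1 was disrupted, and whether the cells labelled Rif1-KO are 1 clone, were not given in the sources used here. Nothing says that the libraries came from separate cultures, so the p-values cover the spread between samples alone, which can be technical.

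Libraries labelled Rif1-KO held 10980777, 9833394 and 9185062 counts and control libraries 9218036, 8383632 and 9111979. Rif1 itself, counted over the whole gene, had 602, 604 and 664 CPM (counts scaled to library size, after TMM scaling) in libraries labelled Rif1-KO, against 673, 657 and 700.1 CPM in control libraries. The groups overlapped, and the log2 fold change of -0.12 ± 0.05 (SE) had an adjusted p of 0.0509 (edgeR). It passed 0.05 under 11 of 17 alternative settings. A count over the whole gene does not check a deletion of part of it, so the labels are used as given.

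The large subunit joins amino acids into the chain, and the small subunit reads the messenger RNA. Most of the proteins are present as 1 copy per ribosome, so they are needed in near-equal amounts and surplus protein is degraded. Their messenger RNAs begin with a run of pyrimidines (the TOP motif), through which the kinase mTOR, acting on Larp1 and the 4E-BP proteins, sets their translation. Ribosomal protein messenger RNAs are among the most abundant in stem cells, many of the genes carry small nucleolar RNAs in their introns, and most have left processed pseudogenes across the genome.

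Of the 76 genes, 56 had an entry among the RefSeq promoters of GRCm38.p6, which span 250 bases before and 50 bases after the annotated start. The letters TCTTTC, a pyrimidine run of the kind found at TOP starts, were searched on the transcript strand from 10 bases before to 20 bases after the start. They were present in 7 of the 56 genes (12.5%), against 1.19% of the 27025 genes with a promoter entry. Those 7 windows of 30 bases are printed with TCTTTC in capitals, and the annotated start is the base that follows the first 10. In Rps26 and Rpl18 that base is a g and TCTTTC lies after it, and in Rpl7a TCTTTC lies before it. Not all of the windows thus show a pyrimidine at the annotated start. They lie at chr10:128626487-128626516 on the minus strand for Rps26, chr2:39005112-39005141 on the minus strand for Rpl35, and chr16:33056472-33056501 on the plus strand for Rpl35a. The plus strand also holds Rpl28 at chr7:4792955-4792984, Rpl7a at chr2:26910797-26910826, Rpl18 at chr7:45718061-45718090 and Rpl38 at chr11:114668570-114668599. This build is not the mm9 build of the counts, so the coordinates belong to the sequences alone.
Rps26: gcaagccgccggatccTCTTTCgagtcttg
Rpl35: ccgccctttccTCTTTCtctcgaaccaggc
Rpl35a: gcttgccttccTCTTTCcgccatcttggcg
Rpl28: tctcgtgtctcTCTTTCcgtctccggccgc
Rpl7a: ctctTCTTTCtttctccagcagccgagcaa
Rpl18: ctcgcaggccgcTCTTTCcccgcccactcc
Rpl38: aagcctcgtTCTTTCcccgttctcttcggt

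In libraries labelled Rif1-KO, 36 of the 76 ribosomal protein genes fell, none rose, and 40 did not pass the test (adjusted p under 0.05, edgeR quasi-likelihood test with Benjamini-Hochberg adjustment over 14250 genes). The share that fell, 47.4%, stood against 24.8% of all tested genes, while 26.1% of all tested genes rose and 50.9% were called in either direction. Among the 3916 tested genes at or above the level of the least abundant member (64.0 CPM), 37.3% fell, 27.5% rose and 64.8% were called in either direction. They are called genes of like abundance below, though only this lower bound was set and levels were not matched. The 76 had a median level of 479 CPM and reached 3948 CPM. Changes were small: the median log2 fold change of the 76 was -0.11, against 0.00 over all tested genes and -0.04 over the genes of like abundance. Fold changes ran from -0.40 for Rpl29 to 0.19 for Rpl39, with 59 below 0 and 17 above. The groups did not overlap in 28 genes that were lower in libraries labelled Rif1-KO (36.8%), a share close to the 38.7% of genes of like abundance and above the 27.8% of all tested genes. Rpl36a alone was without overlap in the other direction, against 29.4% of all tested genes and 30.2% of those of like abundance.

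The count of 0 that rose depended on 2 libraries. Rps19 was the only gene of the 76 that was higher at an unadjusted p under 0.05, DESeq2 called none higher, and limma-voom called Rps19. Without Rif1-KO replicate 3, 10 genes were called higher (Rplp1, Rpl13, Rpl39, Rps4x, Rps7, Rps14, Rps15a, Rps19, Rps20 and Rps21). Without control replicate 1, 6 were called higher, all of them among those 10. Of all tested genes, 25.3% were called higher without Rif1-KO replicate 3 and 24.9% without control replicate 1. The count of the 76 that fell was 35 and 36 without these libraries, against 23.7% and 23.3% of all tested genes. With an offset for GC content and length 31 genes were called lower and 4 higher, against 29.6% and 22.2% of all tested genes. The median log2 fold change of the 76 was then -0.07, against -0.05 over all tested genes, so the members lay closer to the rest than without the offset.

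Summed over the 76 genes, the level was 43798, 45002 and 42229 CPM in libraries labelled Rif1-KO, against 47340, 48635 and 47287 CPM in control libraries. All 3 libraries labelled Rif1-KO lay below all 3 control libraries. The means were 43677 ± 1390 CPM and 47754 ± 764 CPM (SD, n = 3 each), a sum 8.54% lower in libraries labelled Rif1-KO. In RNA from whole cultures, fewer cells of a type and less RNA per cell cannot be told apart.

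The question of whether both subunits moved alike was addressed by summing each of them. Large subunit genes summed to 25145, 25881 and 24719 CPM in libraries labelled Rif1-KO, against 27568, 28927 and 27932 CPM in control libraries. The large subunit sum was 10.3% lower in libraries labelled Rif1-KO, and the groups did not overlap. Small subunit genes summed to 18653, 19121 and 17511 CPM in libraries labelled Rif1-KO, against 19772, 19708 and 19355 CPM in control libraries. The small subunit sum was 6.03% lower, again without overlap, and Rif1-KO replicate 3 was the lowest library. The large-to-small ratio was 1.35, 1.35 and 1.41 in libraries labelled Rif1-KO, against 1.39, 1.47 and 1.44 in control libraries. Here the groups overlapped, since Rif1-KO replicate 3 lay above control replicate 1. The mean ratios were 1.37 ± 0.0352 and 1.44 ± 0.0374 (SD, n = 3 each).

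**Figure D1:**
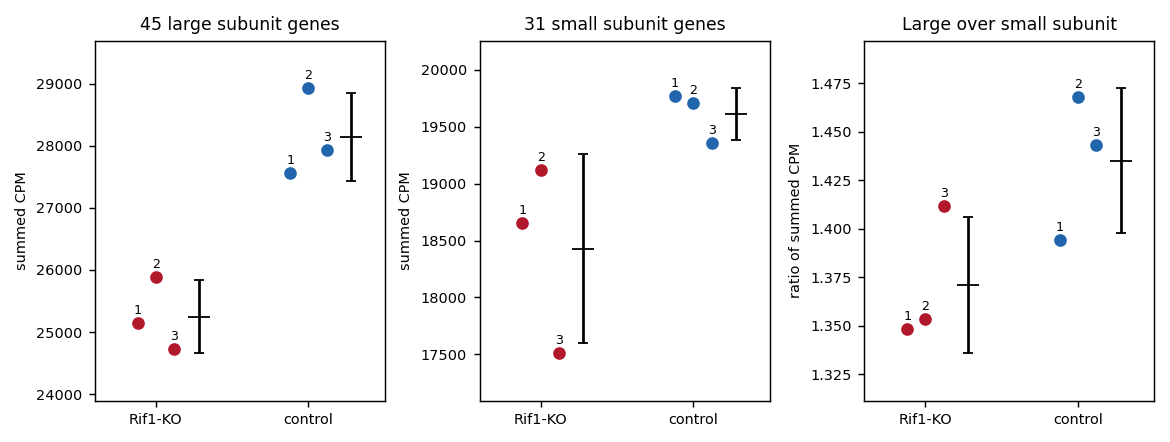
Summed CPM of the 45 large subunit genes (left) and the 31 small subunit genes (middle) and their ratio (right), with 1 point per library numbered by replicate and bars showing mean ± SD (n = 3). The axes do not start at 0. Both sums are lower in the 3 libraries labelled Rif1-KO than in any control library, while the ratios of the groups overlap.

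By gene, 23 of 45 large subunit genes fell (51.1%) with a median log2 fold change of -0.14, and 13 of 31 small subunit genes fell (41.9%) with a median of -0.09. Genes without overlap that were lower in libraries labelled Rif1-KO numbered 18 in the large (40.0%) and 10 in the small subunit (32.3%), shares near and below the 38.7% of genes of like abundance. The difference of the medians, -0.05, was smaller than the SD of the fold changes within either subunit, 0.145 for the large and 0.141 for the small. It ranged from -0.12 without Rif1-KO replicate 3 and -0.10 without control replicate 1 to -0.01 without Rif1-KO replicate 2, so its size depended on single libraries. The small subunit median was -0.03 without Rif1-KO replicate 3, and 8 small subunit genes were called lower without control replicate 3.

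**Figure D2:**
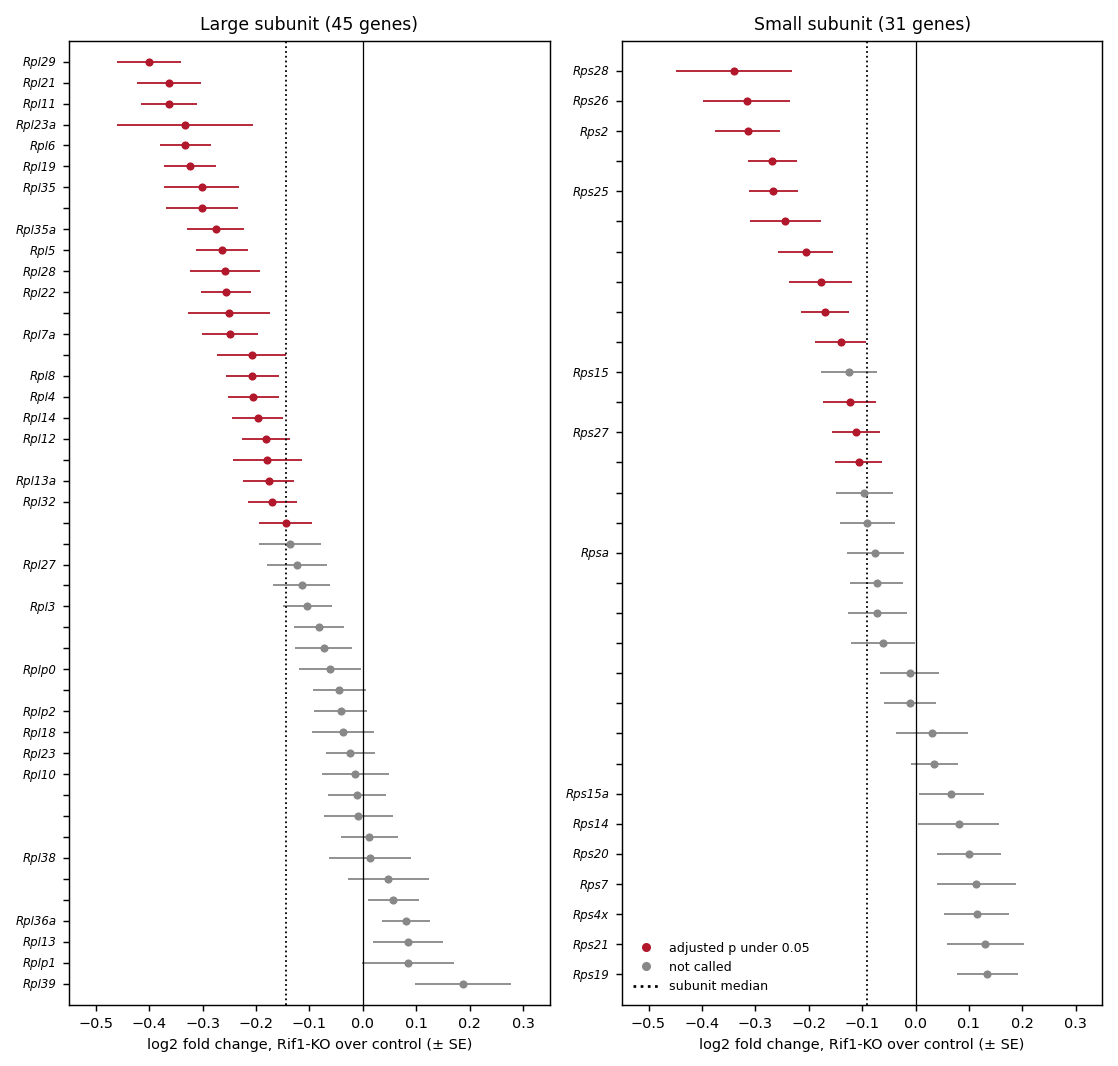
Log2 fold change (Rif1-KO over control) with its SE for every large subunit gene (left, 45 genes) and small subunit gene (right, 31 genes), ordered by size, with the genes described in the text named. Red points passed an adjusted p of 0.05, and all of them lie below 0. The dotted lines mark the medians of -0.14 and -0.09.

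Among large subunit genes, both proteins that form the 5S particle with 5S ribosomal RNA, and that also bind the p53 regulator Mdm2, fell. Rpl11 had 206, 201 and 220.3 CPM in libraries labelled Rif1-KO, against 252, 287 and 268.8 CPM in control libraries. Rpl5 had 265, 257 and 256 CPM in libraries labelled Rif1-KO, against 292, 327 and 316 CPM in control libraries. Neither gene had overlapping groups, and the log2 fold changes were -0.36 ± 0.05 for Rpl11 (adjusted p = 8.56e-06) and -0.26 ± 0.05 for Rpl5 (adjusted p = 0.00013).

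The stalk recruits elongation factors. Of its 4 genes, Rpl12, at the base of the stalk, fell by 0.18 on the log2 scale (adjusted p = 0.00216). Rplp0, which anchors the stalk, had 716, 776 and 666 CPM in libraries labelled Rif1-KO, against 814, 714 and 724 CPM in control libraries. Rplp1, an acidic stalk protein, had 701, 725 and 528 CPM in libraries labelled Rif1-KO, against 683, 562 and 598 CPM in control libraries. Both genes had overlapping groups, and in Rplp1 replicate 3 was far below the other two libraries labelled Rif1-KO. The second acidic protein, Rplp2, had 747, 845 and 776 CPM in libraries labelled Rif1-KO, against 796, 825 and 815 CPM in control libraries. Log2 fold changes were -0.06 ± 0.06 for Rplp0, 0.08 ± 0.09 for Rplp1 and -0.04 ± 0.05 for Rplp2, none past the test. Without Rif1-KO replicate 3, Rplp1 was called higher, at 0.21.

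Proteins that line or surround the tunnel through which the new chain leaves were encoded by 8 of the genes. Of these, 7 fell (87.5%), against 37.3% of genes of like abundance, with a median log2 fold change of -0.21. Rpl19, which also contacts the small subunit, had 346, 349 and 350.2 CPM in libraries labelled Rif1-KO, against 406, 457 and 446 CPM in control libraries, a log2 fold change of -0.32 ± 0.05. Rpl4, which reaches into the tunnel and was the most abundant of the 76, had 3632, 3633 and 3739 CPM in libraries labelled Rif1-KO, against 4018, 4461 and 4207 CPM in control libraries. Its log2 fold change was -0.21 ± 0.05, and neither gene had overlapping groups. Rpl23a, at the tunnel exit, had 275, 281 and 338 CPM in libraries labelled Rif1-KO, against 259, 469 and 399 CPM in control libraries. Its control libraries spanned the range of the libraries labelled Rif1-KO, and its log2 fold change of -0.33 ± 0.13 (adjusted p = 0.0352) lost its call under several alternatives. It did so with DESeq2 (adjusted p = 0.33), with limma-voom (0.072), with the GC content and length offset (0.0667) and without any one of 4 libraries. The adjusted p was 0.109 and 0.121 without Rif1-KO replicates 1 and 2, and 0.323 and 0.123 without control replicates 2 and 3. Rpl39, which narrows the tunnel, did not pass, with 91.6, 90.5 and 71.0 CPM in libraries labelled Rif1-KO, against 86.4, 67.1 and 69.1 CPM in control libraries. Of the 8, 4 were called lower without Rif1-KO replicate 1, and 3 without Rif1-KO replicate 2, control replicate 2 or control replicate 3.

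Of the other 31 large subunit genes, 13 fell (41.9%), against 37.3% of genes of like abundance. Rpl29, the least abundant of the 76 and also described as a heparin-binding protein, had the most negative fold change. It had 52.8, 57.0 and 55.7 CPM in libraries labelled Rif1-KO, against 71.6, 77.3 and 69.5 CPM in control libraries. The groups were well apart, at a log2 fold change of -0.40 ± 0.06 (adjusted p = 1.49e-05). Rpl21, mutated in a human hereditary hair loss, had 296, 303 and 338 CPM in libraries labelled Rif1-KO, against 368, 438 and 400.4 CPM in control libraries. Rpl6, a large subunit protein without a bacterial counterpart, had 599, 642 and 617 CPM in libraries labelled Rif1-KO, against 751, 813 and 775 CPM in control libraries. Their log2 fold changes were -0.36 ± 0.06 and -0.33 ± 0.05, without overlap in either. Rpl8, which sits by the catalytic centre, fell by 0.21 on the log2 scale. Rpl32 fell by 0.17.

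In the small subunit, 5 of 14 genes for proteins of the head fell (35.7%) and 8 of the remaining 17 (47.1%), against 37.3% of genes of like abundance. Leaving out Rif1-KO replicate 2 or control replicate 3 made the first count 3, and leaving out Rif1-KO replicate 1 or control replicate 3 made the second 5. Rps2, which lies at the entry of the messenger RNA channel, had 1179, 1255 and 1032 CPM in libraries labelled Rif1-KO, against 1532, 1380 and 1399 CPM in control libraries. The groups did not overlap, and the log2 fold change was -0.31 ± 0.06 (adjusted p = 0.00024). Rps26, at the exit of that channel, had 828, 881 and 951 CPM in libraries labelled Rif1-KO, against 917, 1292 and 1103 CPM in control libraries. Rps28, near the same exit, had 88.7, 78.4 and 100.2 CPM in libraries labelled Rif1-KO, against 88.1, 139 and 112 CPM in control libraries. In both genes control replicate 1 lay within the range of the libraries labelled Rif1-KO and control replicate 2 was the highest of all. The log2 fold changes were -0.32 ± 0.08 for Rps26 and -0.34 ± 0.11 for Rps28. The adjusted p of Rps28 was 0.0129, but 0.209 with DESeq2, 0.143 without control replicate 2 and 0.087 without Rif1-KO replicate 2. Rps26 did not pass with DESeq2 either (adjusted p = 0.0903). Rpsa, which is also known as a laminin receptor, had 988, 1095 and 949 CPM in libraries labelled Rif1-KO, against 1103, 1057 and 1035 CPM in control libraries, with overlap and a log2 fold change of -0.08 ± 0.05. Without Rif1-KO replicate 2 it was called lower, at -0.14.

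The 20 genes mutated in human Diamond-Blackfan anaemia, an inherited failure of red cell production, gave 11 that fell and a median of -0.13. Rps19, the gene most often affected in that disease, had 529, 535 and 461 CPM in libraries labelled Rif1-KO, against 484, 431 and 475 CPM in control libraries, a log2 fold change of 0.13 ± 0.06 that did not pass (adjusted p = 0.0563). The 4 genes on the X chromosome (Rps4x, Rpl10, Rpl36a and Rpl39) had a median of 0.10 and none passed in either direction, also none at an unadjusted p under 0.05, with DESeq2 or with limma-voom. Without Rif1-KO replicate 3, or without control replicate 1, Rps4x and Rpl39 were called higher. Both were also called higher with the GC content and length offset (adjusted p = 0.0459 for Rps4x and 0.0486 for Rpl39), and Rpl39 with the replicate block or with no filter on low counts.

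The fold changes of the 76 genes were spread more widely than the SE of most single genes. The SD of the 76 log2 fold changes was 0.145 and the interquartile range 0.235, while the SE of 1 gene had a median of 0.0537 and ran from 0.0439 to 0.128. With the SE taken out, an SD of 0.132 remained. That step treats the errors of the genes as independent, while deviations of single libraries were shared across the genes, as described below. The remainder is thus a description, and whether the change itself was uneven was not tested. Over the genes of like abundance the SD was 0.341 and the interquartile range 0.378, and over all tested genes 0.632 and 0.495, so the ribosomal protein genes lay closer together than either. Leaving out 1 library moved the SD between 0.111 (without control replicate 2) and 0.196 (without control replicate 1).

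**Figure D3:**
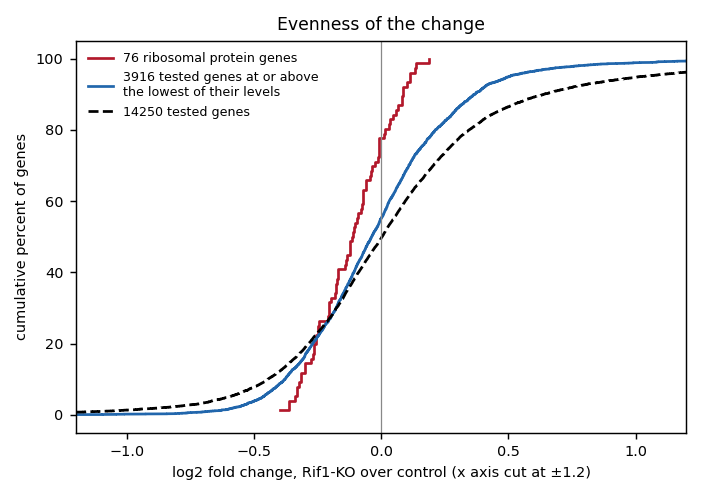
Cumulative percent of genes (vertical axis) at or below each log2 fold change, Rif1-KO over control (horizontal axis, cut at ±1.2), for the 76 ribosomal protein genes, the 3916 tested genes of like abundance and all 14250 tested genes. The red line of the 76 is the steepest and runs from -0.40 to 0.19.

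The genes also varied in a shared order within the groups. As a description across the 76 genes, the deviations of Rif1-KO replicate 3 from its group mean had a Pearson correlation of -0.90 with those of control replicate 1 and 0.88 with those of control replicate 2. Over the 3916 genes of like abundance the same correlations were -0.60 and 0.46. Genes toward the top of the ordered heat map, such as Rpl23a, Rps28 and Rps26, were highest in control replicate 2. Genes at the bottom, such as Rpl39, Rps21 and Rps7, were lowest in control replicate 2 or Rif1-KO replicate 3 and high in Rif1-KO replicates 1 and 2 and control replicate 1. The points of such a correlation share libraries and scaling, and no replicate number joins the libraries concerned. Deviations from a group mean also cancel out within the group for each gene. The correlations with control replicates 1 and 2 are thus not separate observations.

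**Figure D4:**
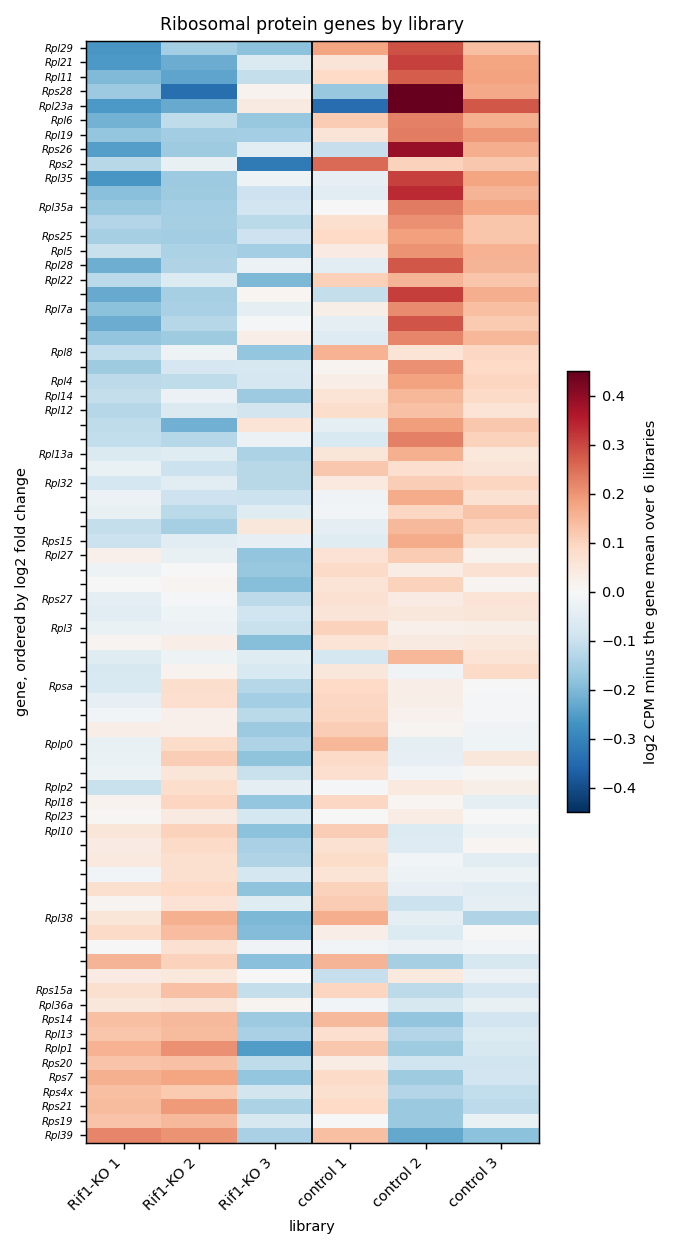
Log2 CPM of each of the 76 genes minus its mean over the 6 libraries (colour), with genes ordered by log2 fold change from the most negative at the top, those described in the text named, and libraries labelled Rif1-KO left of the line. Control replicate 1 resembles Rif1-KO replicates 1 and 2 in the lowest rows and in genes such as Rpl23a near the top.

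A pair of transcripts moved with that order and was chosen after its values were seen. AY036118, an entry that resembles ribosomal RNA, had 1456, 1396 and 827 CPM in libraries labelled Rif1-KO, against 900, 426 and 653 CPM in control libraries. Lars2 encodes a mitochondrial leucyl-tRNA synthetase, but its entry was also taken to hold sequence like ribosomal RNA. Which of these its counts come from was not tested. Lars2 had 1509, 1380 and 790 CPM in libraries labelled Rif1-KO, against 839, 357 and 619 CPM in control libraries. Both were called higher, with log2 fold changes of 0.89 ± 0.19 and 1.02 ± 0.21, and in both Rif1-KO replicate 3 lay below control replicate 1. The 37 entries of the mitochondrial genome summed to 25914, 25283 and 31688 CPM in libraries labelled Rif1-KO, against 27164, 38118 and 33771 CPM in control libraries.

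When the mean level of AY036118 and Lars2 was added to the fit as a further term, 44 of the 76 genes were called lower and 1, Rpl23a, was called higher. Of all tested genes, 19.3% were then lower and 20.8% higher. The median log2 fold change of the 76 was -0.15, and the median of the large subunit minus that of the small was -0.01. The calls were to a large part on other genes, since 19 genes were called lower in both fits, 17 only without the term and 25 only with it. The sign turned in 25 of the 76 genes, 8 of them called lower without the term. Rplp1 turned to -0.26 (adjusted p = 0.000349) and Rpl23a to 0.23 (adjusted p = 0.0163). In the tunnel list 1 of 8 genes was called lower with the term and 1 higher, and in the stalk list 3 of 4 were lower. The 4 genes on the X chromosome had a median of -0.12, with Rpl10 called lower. The SD of the fold changes was 0.114 with the term. The term follows the group in part, with 3 libraries each, so what it stands for was not tested.

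**Figure D5:**
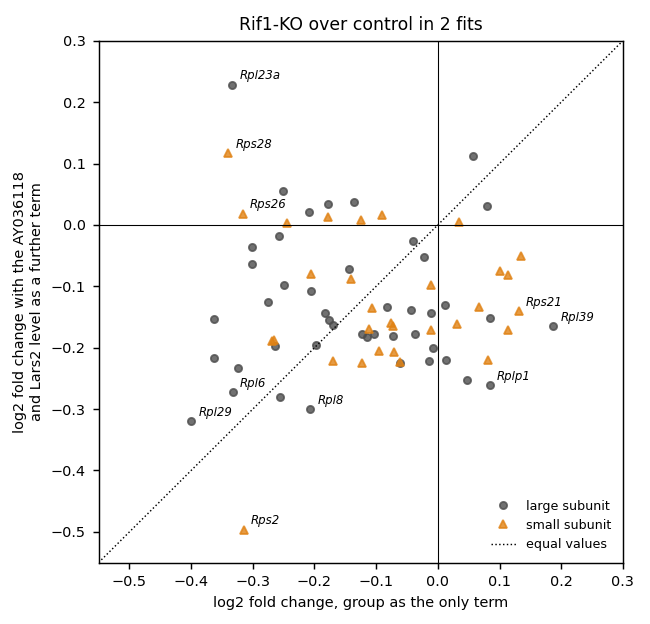
Log2 fold change of the 76 genes (Rif1-KO over control) from the fit with group alone (horizontal axis) and with the level of AY036118 and Lars2 as a further term (vertical axis), with large subunit genes as circles and small subunit genes as triangles. Most points lie below 0 on both axes, and Rpl23a and Rplp1 are among those whose sign turned.

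A set of 16 genes was called lower with group alone and under each of the 17 alternative fits. Among them were Rpl5, Rpl6, Rpl8, Rpl11, Rpl12, Rpl13a, Rpl14, Rpl19, Rpl21, Rpl22, Rpl29 and Rpl32 of the large subunit and Rps2 and Rps25 of the small subunit. Of these, Rpl13a is also known for a role in silencing inflammatory messenger RNAs, and Rps25 for translation from internal entry sites. A further count, over all 76, found 39 genes with a log2 fold change below 0 in each of the fits. Neither count was made over all tested genes, so no background share stands beside the 16 or the 39.

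Read density, the mean CPM over all 6 libraries per kilobase of transcript, placed Rpl4 (2567), Rpl8 (2335), Rpl32 (2037), Rplp2 (1902) and Rps15 (1729) highest. It was lowest for Rpl27 (160.4), Rpl5 (140), Rpl39 (130) and Rpl29 (110). Lengths came from 1 GENCODE M21 transcript per gene and were rough, so neighbours in this order are not told apart. How reads shared with other genes were counted is not given, and it can move a gene further in this order. Rps15, a protein of the head, did not pass the test, with a log2 fold change of -0.13 ± 0.05 (adjusted p = 0.0537). Rpl27 did not pass either, at -0.12 ± 0.06. Rps15 was called lower under 8 of 17 alternatives. Among them were DESeq2 (adjusted p = 0.0394), limma-voom (0.0347) and the fits without Rif1-KO replicate 3 or control replicate 1. Rpl27 was called lower under 3 of 17, namely without Rif1-KO replicate 1, with the replicate block and with the AY036118 and Lars2 term.

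Reads of these genes can be shared with processed pseudogenes, and how the counting treated reads with several matches is not given. The median share of a gene's stretches of 50 bases that were found in a transcript of another gene was 61.7%, from 0 to 98.7%, the last for Rps27. Of the 26 genes sharing under 50%, 11 fell, with a median log2 fold change of -0.08, and of the 50 sharing more, 25 fell, with a median of -0.12 (16 without control replicate 3). The tables held 162 ribosomal protein pseudogene symbols, of which 25 were tested and 2 fell (8.0%), against 24.8% of all tested genes. The count that fell was 4 without Rif1-KO replicate 3 or control replicate 1, and 1 without control replicate 3. Together the 162 entries summed to 351 to 373 CPM in libraries labelled Rif1-KO, against 388 to 492 CPM in control libraries. Rpl14-ps1 had 73.2, 86.7 and 120.4 CPM in libraries labelled Rif1-KO, against 103, 192 and 149 CPM in control libraries, and Rplp2-ps1 was the other that fell. Rif1-KO replicate 3 lay above control replicate 1 for Rpl14-ps1, as it did not for its parent gene Rpl14, whose groups were apart at a log2 fold change of -0.20 ± 0.05.

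Of the 30 genes with a small nucleolar RNA inside them, 17 fell (56.7%, median -0.15). Of the 46 without, 19 fell (41.3%, median -0.09, and -0.04 without Rif1-KO replicate 3). The share that fell was 37.3% of genes of like abundance. Across the 76 genes, Spearman correlations with the log2 fold change were -0.15 for transcript length, -0.03 for GC content, -0.16 for the share of shared stretches, -0.19 for the number of small nucleolar RNAs and -0.04 for mean CPM. None of these features ordered the genes closely. Of the 7 genes printed with TCTTTC near the annotated start, Rps26, Rpl35, Rpl35a, Rpl28 and Rpl7a fell, at -0.25 to -0.32, while Rpl18 and Rpl38 had -0.04 ± 0.06 and 0.01 ± 0.08. Of the 49 matched genes without it, 21 fell, and the medians were -0.26 with and -0.10 without it. With the level of AY036118 and Lars2 in the fit, none of the 7 but Rpl18 and Rpl38 was called lower. The letters CCGGAA, of the kind bound by ETS factors such as Gabpa, were on either strand of 31 of the 56 promoters (55.4%), against 16.7% of all promoters. The letters AAGATGG, of the kind bound by Yy1, were on either strand of 9 (16.1%), against 7.28%, and no overlap between motifs was sought.

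Outside the rule, Gnb2l1, the scaffold protein of the small subunit head, had 2476, 2457 and 2105 CPM in libraries labelled Rif1-KO, against 2534, 2208 and 2262 CPM in control libraries, with overlap. Fau had a log2 fold change of -0.11 ± 0.05 (adjusted p = 0.0604) and passed without Rif1-KO replicate 2 or control replicate 1. Of 8 paralogues of ribosomal protein genes, 5 fell (62.5%) and Rpl10l rose, against 24.8% and 26.1% of all tested genes. Without any one of Rif1-KO replicates 1 and 2 and control replicates 1 and 3, 3 paralogues were called lower. Rpl36al had 53.2, 61.4 and 63.8 CPM in libraries labelled Rif1-KO, against 70.7, 86.5 and 75.6 CPM in control libraries. Rpl10l had 63.7, 64.4 and 57.9 CPM in libraries labelled Rif1-KO, against 52.8, 52.4 and 53.8 CPM in control libraries, and both paralogues had groups without overlap.

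Of 14 further genes whose messenger RNAs carry a TOP motif, 9 fell (64.3%), with a median of -0.23. The share was 24.8% of all tested genes and 37.3% of those of like abundance. Npm1, a nucleolar chaperone of ribosome assembly, had 1260.4, 1318 and 1352 CPM in libraries labelled Rif1-KO, against 2123, 2450 and 2204 CPM in control libraries. Its log2 fold change of -0.79 ± 0.05 lay further below 0 than that of any of the 76 genes. Eif4b, a helper of the initiation helicase, had -0.45 ± 0.05, Eef1d, an exchange factor of elongation, -0.42 ± 0.05, and Nap1l1, a histone chaperone, -0.35 ± 0.05. The elongation factor Eef1a1, also a TOP gene, had 8305, 8215 and 8563 CPM in libraries labelled Rif1-KO, against 8200, 8385 and 8346 CPM in control libraries.

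Chaperones and loaders that carry single ribosomal proteins gave 6 of 9 tested genes that fell (66.7%), against 24.8% of all tested genes. Their median was -0.21. Bccip, a chaperone of Rpl23, had 67.0, 71.4 and 71.9 CPM in libraries labelled Rif1-KO, against 103, 106 and 105 CPM in control libraries. Its client Rpl23 had 697, 714 and 658 CPM in libraries labelled Rif1-KO, against 696, 712 and 694 CPM in control libraries. The groups were well apart in Bccip, at a log2 fold change of -0.58 ± 0.05, and overlapped in Rpl23, at -0.02 ± 0.05. Grwd1, a chaperone of Rpl3, had -0.49 ± 0.08, and Rpf2 and Heatr3, whose yeast counterparts load and import the 5S particle, had -0.36 ± 0.08 and -0.26 ± 0.06. Rpl3 had -0.10 ± 0.05 and did not pass.

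Among regulators of ribosomal protein genes and of their messenger RNAs, 6 of 10 tested genes fell (60.0%), against 24.8% of all tested genes. The median of the regulators was -0.18. Mycn, a transcription factor that activates ribosome genes, had 52.2, 54.4 and 47.8 CPM in libraries labelled Rif1-KO, against 118, 106 and 106 CPM in control libraries. Its groups were well apart at a log2 fold change of -1.10 ± 0.06. The TOP binding protein Larp1 fell by 0.32 on the log2 scale. The 4E-BP gene Eif4ebp2 fell by 0.38 and Eif4ebp1 fell by 0.22. Mtor, Gabpa and Yy1 did not pass (Gabpa and Yy1 were called lower without control replicate 1, and Gabpa without Rif1-KO replicate 3), and Myc was not tested, at no more than 1.01 CPM in any library.

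The 8 stem cell markers summed to 4300 to 4687 CPM in libraries labelled Rif1-KO, against 4402 to 4730 CPM in control libraries. Fibroblast markers summed to 20.5 to 23.3 against 20.7 to 30.01 CPM, endoderm markers to 15.1 to 16.1 against 10.2 to 11.7 CPM, and neural markers to 104 to 111 against 48.4 to 62.3 CPM, Rif1-KO before control. Trophectoderm markers summed to 209.6 to 223 CPM in libraries labelled Rif1-KO, against 139 to 143 CPM in control libraries. Of the 3 tested trophectoderm markers, Krt8 and Krt18 rose, by 1.72 and 1.44 on the log2 scale, and Tcfap2c fell by 0.39, while Cdx2, which defines that lineage, was at 0 in all 6 libraries, as were Neurog2 and Lum of the neural and fibroblast lists. Of the 2 tested neural markers, Nes rose by 1.12, at a mean of 99.8 CPM in libraries labelled Rif1-KO, against 46.2 CPM in control libraries, and made up most of the sum, while Tubb3 fell by 0.55. All 3 tested endoderm markers rose, but Gata4 and Gata6 did not pass with DESeq2 (adjusted p = 0.151 and 0.0843). Sox17 was near the floor, at a mean of 1.54 CPM in libraries labelled Rif1-KO, against 0.49 CPM in control libraries. Of the untested endoderm markers, Afp and Foxa2 had overlapping groups. Sox7 was lower without overlap, at a mean of 0.0975 CPM in libraries labelled Rif1-KO, against 0.543 CPM in control libraries. Of 3 tested fibroblast markers Thy1 fell. Of the 8 stem cell markers 4 did not pass, Sall4 fell by 0.57 and Sox2 fell by 0.54, while Dppa5a rose by 0.46 and Nanog rose by 0.11. The rise of Nanog depended on the fit, since its call was kept in 7 of the 17 alternative fits and lost in 10. With the GC content and length offset its log2 fold change was only 0.04 (adjusted p = 0.451). Dppa5a lost its call in 1 fit, the one with the AY036118 and Lars2 term, at 0.12. The part of these markers in the ribosomal protein values was not tested.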

How the data were processed

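For each library the authors deposited 1 table of whole, unscaled counts by gene symbol. Reads were aligned to mm9 with STAR and counted with featureCounts 1.6.2, per the submitters' processing notes. Per the labels' protocols, an mRNA kit was used on 200 ng of total RNA. Annotation, strand setting and the treatment of reads with several matches were not given in the sources used here, so counts of genes with pseudogene copies, of hosts and of overlapping genes are uncertain.

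Counts were tested here by the quasi-likelihood test of edgeR 4.0.16 under R 4.3.3, after filterByExpr and TMM scaling and with group as the only term, over all 6 libraries, with Benjamini-Hochberg adjustment over 14250 genes and calls at an adjusted p under 0.05. Every adjusted p comes from this fit unless another is named. CPM values are counts over TMM-scaled library sizes, errors of CPM are SD, and errors of log2 fold changes are SE. Sums, medians and SDs over members are descriptions without a test. Alternatives were DESeq2 1.42.0, limma-voom (limma 3.58.1), other scalings, no filter on low counts, a GC content and length offset, a replicate block and leaving out each library. The AY036118 and Lars2 term was added after seeing the data.

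All 76 genes and 31079 of 33924 symbols matched a GENCODE M21 transcript, used for lengths, GC content, shared stretches and small nucleolar RNAs. For the printed features of the 76, the shortest of the main annotated transcripts was used where there was one, since some run far past the usual end. The GC content and length offset used the longest of the best-supported transcripts of every gene. A member's length can thus differ between the offset and the printed features. Promoters are RefSeq (GRCm38.p6), and protein sequences were not used here. The members and lists were chosen with earlier results of these data known. Named genes were the stalk, 5S and Rpsa genes, the 10 most negative called members (the 10 most positive were also asked for, but none was called higher), the 6 highest and 4 lowest in CPM per kilobase, and up to 4 genes per list by adjusted p. Other genes are named to account for the 76 or a list, with their values known. Some genes that this rule or a count covers are not reported here by name.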

Additional observations from a re-analysis of the deposited data

How the results depend on the processing

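Across settings the median log2 fold change of the 76 ribosomal protein genes stayed below 0, though only 39 genes were below 0 in each fit. From 27 to 44 of the 76 were called lower, against 36 as reported. Of all tested genes, 11.4% (DESeq2, over 24017 genes) to 30.1% (replicate block with the GC content and length offset) were lower. Higher were 11.8% (DESeq2) to 27.4% (library totals without TMM). The ratio of sums, which could be recomputed for library totals and for left-out libraries alone, stayed between 0.901 and 0.930. The median log2 fold change was -0.15 with the AY036118 and Lars2 term and -0.0718 with the GC content and length offset, with which all tested genes had -0.05 and 29.6% were lower and 22.2% higher. The count called higher was 1 with that term, 1 with library totals without TMM, 1 with limma-voom, 3 with no filter on low counts and 4 with the offset, and 0 to 10 when 1 library was left out (10 without Rif1-KO replicate 3, 6 without control replicate 1). Large minus small subunit medians were -0.05 as reported, -0.0126 with the term, -0.11 over members sharing under 50% of their stretches, and -0.12 to -0.0128 when 1 library was left out. The cause of these differences was not tested.

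With the term the log2 fold change turned for 25 of the 76, 8 of them called lower as reported. Among the named genes it turned for Rplp1 (-0.26), Rps28 (0.12), Rpl23a (0.23), Rps26 (0.0185), Rps15 (0.00794) and Rpl39 (-0.16), and with the offset for Rplp2 (0.0192, and 0.0179 with the replicate block as well). Over 53 named genes and 901 values under alternatives, 827 kept direction and call, 33 lost the call, 33 gained it and 8 turned.

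Same-numbered libraries had correlations of deviations of 0.0793, -0.0646 and 0.0461 over genes, and not every library correlated best with its own number, so the numbers were not taken to pair the samples. With the replicate block 2 members were called higher and 41 lower, with a median of -0.11. With the block and the offset together 7 were higher and 33 lower, with a median of -0.0725.

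Depth was 8383632 to 10980777 counts, and 3 libraries a group limit the precision of small changes, with a median SE of 0.0537.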
